A study of Homo sapiens with 8 samples.

Results

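The muscleblind genes MBNL1, MBNL2 and MBNL3 are 3 of the 13424 genes with a skipped-exon event in this series, and every event listed under their symbols was taken. The table for MCF10A cells listed 30 such events over 20 exons, 17 of them in MBNL1, 10 in MBNL2 and 3 in MBNL3. The table for HMLE TWIST cells listed 25 events over 17 exons, 16 in MBNL1, 7 in MBNL2 and 2 in MBNL3. Exons of the same length in different muscleblind genes were then set side by side.

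MCF10A is a non-tumorigenic line of breast epithelium. HMLE TWIST is an immortalized breast epithelial line that overexpresses TWIST from a retroviral pBabe vector. Both lines were given 10 µM emetine, a plant alkaloid that inhibits protein synthesis, or its solvent DMSO for 24 hours, with 2 biological replicates in each of the 4 groups and polyadenylated RNA sequenced from 8 libraries. All HMLE TWIST libraries carry the TWIST vector, so the lines differ in origin and in TWIST together, and these cannot be told apart.

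Muscleblind proteins are RNA-binding proteins with paired zinc fingers that decide whether many exons are kept or skipped. They are best known from myotonic dystrophy, in which expanded repeat RNA holds them in nuclear foci and their target exons return to a fetal pattern. Their own transcripts are alternatively spliced too, and muscleblind proteins act on some of these exons themselves. In MBNL1, the exon of 54 nt is known to favour nuclear localization of the protein, and the exon of 36 nt has been linked to its self-association.

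Exons of 54 nt were listed for MBNL1 and MBNL2, exons of 36 nt for all 3 genes, and exons of 95 nt for MBNL1 and MBNL2. Their sequences are shown because these exons carry the changes described next and let a reader see that the paralogs' exons are related, not identical. They come from GENCODE 29 transcripts and are written 5′ to 3′ on the transcribed strand. Each was matched to its event by the length of the exon and of its neighbouring introns, except the exon of 95 nt of MBNL3, which was taken by its length in the transcripts. Capitals mark the bases that are not the same in every paralog shown.
MBNL1 exon of 54 nt: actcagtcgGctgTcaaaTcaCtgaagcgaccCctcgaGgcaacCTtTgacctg
MBNL2 exon of 54 nt: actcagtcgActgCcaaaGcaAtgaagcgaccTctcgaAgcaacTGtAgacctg
MBNL1 exon of 36 nt: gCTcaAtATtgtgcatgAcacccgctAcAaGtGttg
MBNL2 exon of 36 nt: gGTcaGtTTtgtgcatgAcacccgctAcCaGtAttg
MBNL3 exon of 36 nt: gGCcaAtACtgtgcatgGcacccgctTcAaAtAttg
MBNL1 exon of 95 nt: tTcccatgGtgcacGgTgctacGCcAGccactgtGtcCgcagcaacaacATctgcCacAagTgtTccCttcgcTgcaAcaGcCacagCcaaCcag
MBNL2 exon of 95 nt: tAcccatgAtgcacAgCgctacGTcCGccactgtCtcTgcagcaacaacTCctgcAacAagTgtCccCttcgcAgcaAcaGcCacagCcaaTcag
MBNL3 exon of 95 nt: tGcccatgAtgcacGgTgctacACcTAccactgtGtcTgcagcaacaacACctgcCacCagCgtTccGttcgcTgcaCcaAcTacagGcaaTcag

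The exons of 54 nt of MBNL1 and MBNL2 shared 45 bases, an identity of 83.3%. The exon of 36 nt of MBNL1 shared 86.1% of its bases with that of MBNL2 and 80.6% with that of MBNL3, and the exon of 95 nt shared 85.3% and 84.2%. The longest run of identical bases between any transcripts of MBNL1 and MBNL2 was 20 bases, and it was 17 bases between MBNL3 and either of the others. None of the 12 GENCODE transcripts of MBNL3 had an internal exon of 54 nt. The exons of 54 and 36 nt are multiples of 3, so that keeping or skipping them leaves the reading frame as it is, whereas the exon of 95 nt is not. Muscleblind proteins are known to bind short motifs around GC, and 4 such motifs were counted on the transcribed strand alone: TGCT and its variant TGCC, then CGCT with its variant CGCC, overlaps included. The exon of 54 nt held 0 matches in MBNL1 and 1 in MBNL2, the exon of 36 nt 1 in each gene, and the exon of 95 nt 4 in MBNL1, 2 in MBNL2 and 4 in MBNL3. Of all internal GENCODE exons of 54, 36 and 95 nt, 44.3%, 34.4% and 66.5% held at least 1 match.

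The inclusion level used throughout is the share of an exon's junction-spanning reads that join it to its neighbours, corrected for the number of positions a read can take in each form, and runs from 0 (always skipped) to 1 (always kept). Junction reads summed over all events were between 78412292 and 83483642 per library of MCF10A, and between 90031966 and 91259363 per library of HMLE TWIST. Of 10 epithelial marker genes, 8 had reads in every MCF10A library, with 47277 to 72971 reads in sum. In the HMLE TWIST libraries 3 to 5 had reads, with 83 to 144 reads in sum and none for KRT5, KRT14 and CLDN1. EPCAM and KRT18 had no reads in either line, so they do not tell the lines apart. Of 8 mesenchymal markers, 8 had reads in HMLE TWIST (163241 to 310076 in sum) and 6 in MCF10A (6503 to 30131). The markers of the labelled epithelial type that had reads in MCF10A were thus nearly absent from HMLE TWIST in these data. Their part in the differences between the lines was not tested.

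The 3 muscleblind genes differed in how many reads lay behind them. The most read event listed for both lines was the exon of 204 nt in MBNL1, a part of the linker between its zinc finger pairs, with 1058 and 952 reads in the MCF10A control libraries, 970 and 641 with emetine, 1261 and 996 in HMLE TWIST control and 1034 and 892 with emetine. In MBNL2 it was the exon of 778 nt, which holds the start of the coding sequence, with 474 and 487 reads in MCF10A control, 929 and 484 with emetine, 237 and 279 in HMLE TWIST control and 183 and 217 with emetine. The emetine replicates of MCF10A thus differed from each other in both genes, with the first listed higher, although their summed reads were close. In MBNL3 it was an exon of 74 nt with 14 and 35, 40 and 32, 1 and 2, and 3 and 3 reads in the same order. Reads of a splicing event are not a measure of gene expression, and in these bulk samples fewer cells with a transcript and less of it per cell cannot be told apart.

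**Figure D1:**
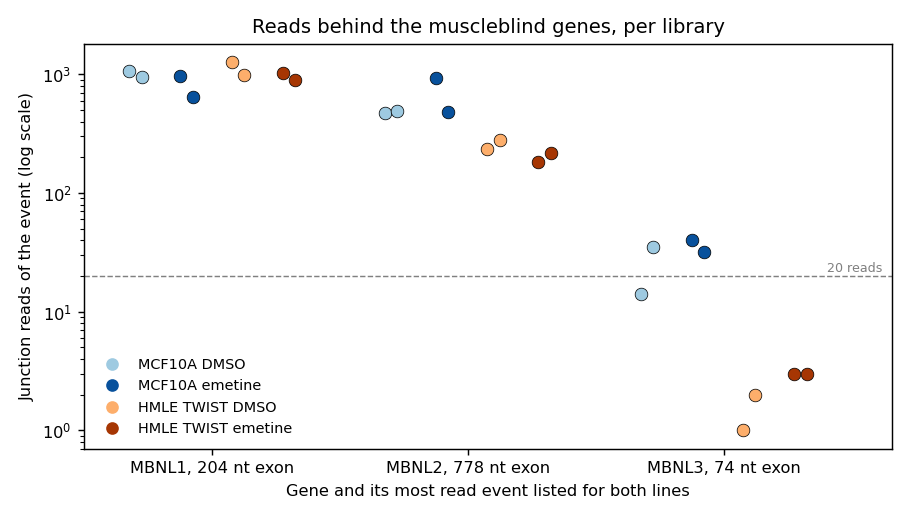
Junction reads per library (vertical axis, log scale) of the most read event listed for both lines in each muscleblind gene; each point is 1 library, in the 4 groups of line and treatment, and the dashed line marks the minimum of 20 reads for a test. MBNL1 and MBNL2 lie above it in every library, and MBNL3 has at most 3 reads in the HMLE TWIST libraries.

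Emetine raised the inclusion of muscleblind exons in both lines wherever a change was called. Of the 11 events tested in MCF10A, 4 events over 3 exons were higher with emetine and 0 were lower, beside 13.8% of all tested events called in either direction, 8.37% higher and 5.48% lower. In HMLE TWIST, 3 of 12 tested events, over 3 exons, were higher and 0 lower, beside 15% of all tested events, 6.66% higher and 8.32% lower. An event was called where the adjusted p was under 0.05 and the mean inclusion level differed by at least 0.1. The median change of the tested muscleblind events was 0.06 in MCF10A and 0.07 in HMLE TWIST, and that of all tested events was -0.0001681 and -0.00315. Control and emetine libraries did not overlap in 9 of 11 MCF10A events and in 9 of 12 HMLE TWIST events, beside 67.4% and 69.9% of all tested events. By limma, 3 and 2 of these muscleblind events were called, beside 7.88% and 9.94% of all tested events. No event of MBNL3 could be tested, and 19 muscleblind events in all went untested in MCF10A and 13 in HMLE TWIST. Of these, 12 and 6 had too few reads of the rarer form alone, and 7 in each line had a library under 20 reads.

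**Figure D2:**
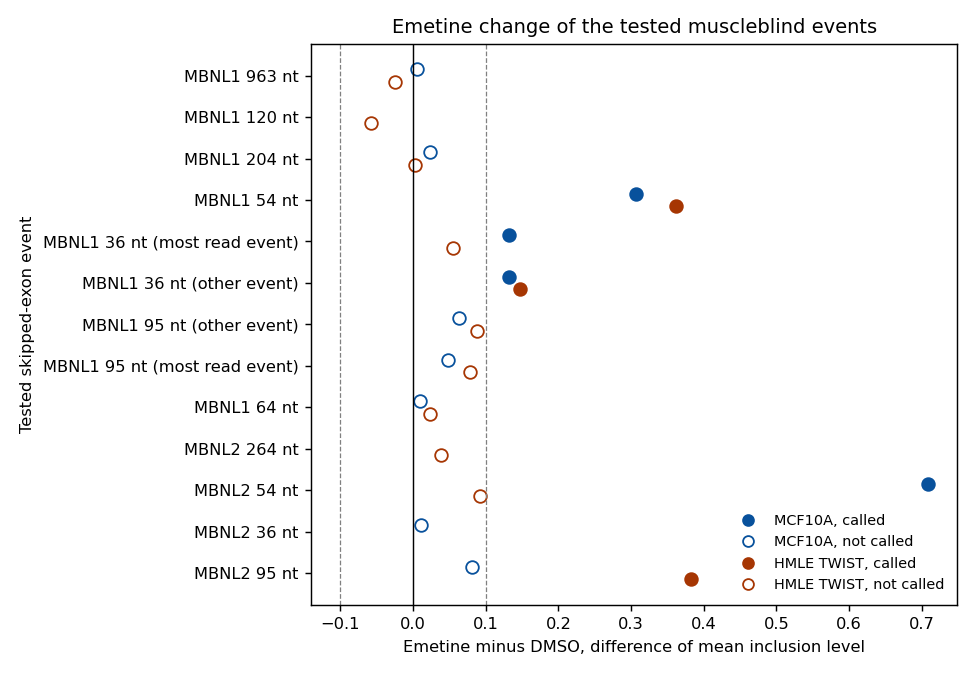
Difference of the mean inclusion level between emetine and DMSO (horizontal axis) for every muscleblind event tested in a line; filled points were called and open points were not, and dashed lines mark 0.1 in each direction. The exons of 54 nt lie farthest to the right in MCF10A, where the change was 0.31 in MBNL1 and 0.71 in MBNL2, and no point lies left of -0.1.

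The exon of 54 nt of MBNL1 (ENSG00000152601.17, chr3:152164493-152164546, plus strand, GRCh37) was kept more often with emetine in both lines, from different control levels. The exon is wholly coding in the 5 GENCODE transcripts that hold this event's inclusion form, and 8 coding transcripts skip it. In MCF10A its inclusion level was 0.574 and 0.62 in the control libraries and 0.895 and 0.912 with emetine. In HMLE TWIST it was 0.206 and 0.191 in control and 0.576 and 0.545 with emetine. The emetine libraries lay above the controls in each line, and the treated HMLE TWIST libraries overlapped the untreated MCF10A libraries.

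The mean rose from 0.597 ± 0.0321 to 0.904 ± 0.0116 (SD, n = 2) in MCF10A, a change of 0.31 (adjusted p = 4.75e-28, and 0.0215 by limma). It rose from 0.198 ± 0.0104 to 0.561 ± 0.0221 (SD, n = 2) in HMLE TWIST, a change of 0.36 (adjusted p = 4.79e-41, and 0.0214 by limma). The 2 changes were not called different from each other (difference 0.06, adjusted p = 0.782). Between 506 and 721 reads per library lay behind these levels, and the 95% Wilson interval of the first MCF10A control library ran from 0.535 to 0.613. Wilson intervals cover counting error only, since reads amplified by PCR are not independent molecules.

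Without emetine, the same exon was kept less often in HMLE TWIST than in MCF10A, by 0.40 (adjusted p = 2.86e-48). By limma the adjusted p of this difference was 0.0943, which misses the threshold. Over the untreated libraries, 2 of the 12 muscleblind events tested differed between the lines, both lower in HMLE TWIST, beside 6.59% of all tested events, 4.45% lower. No muscleblind event was called in this comparison by limma, which called 0.185% of all events. In the main model 5 of the 12 had an adjusted p under 0.05 at any size of difference, beside 3271 of all 20516 tested events.

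The exon of 54 nt of MBNL2 (ENSG00000139793.18, chr13:98009050-98009103, plus strand, GRCh37) showed the largest muscleblind change tested in MCF10A. The GENCODE transcript with both introns of this event is classed as a target of nonsense-mediated decay, the pathway that removes transcripts with early stop codons. Another transcript, 1 that is protein-coding, also carries the exon. The exon lies outside the coding sequence in the decay transcript and is wholly coding in the other. Whether keeping it leads to decay was not tested. Its inclusion level in MCF10A was 0.147 and 0.108 in control and 0.817 and 0.855 with emetine, so that the exon went from mostly skipped to mostly kept. In HMLE TWIST it was 0.00909 and 0.106 in control and 0.143 and 0.157 with emetine. The treated HMLE TWIST libraries lay above their controls and on either side of the higher untreated MCF10A library.

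In MCF10A the mean rose from 0.127 ± 0.0278 to 0.836 ± 0.0264 (SD, n = 2), a change of 0.71 (adjusted p = 4.49e-55, and 0.0145 by limma). The inclusion reads behind it were 36 and 23 in control and 447 and 226 with emetine, and the skipping reads 136 and 124 against 65 and 25. In HMLE TWIST the mean was 0.0575 ± 0.0684 and 0.15 ± 0.00975 (SD, n = 2), and the difference of 0.09 was not called (adjusted p = 0.0911, and 0.209 by limma). The HMLE TWIST libraries held 72, 78, 49 and 54 reads of this event, and the control libraries held 1 and 12 inclusion reads, so depth limits the precision there.

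This was the 1 muscleblind event of 12 whose emetine change was called different between the lines, beside 1.89% of all tested events, 1.28% with the smaller value in HMLE TWIST. The change in HMLE TWIST was smaller by 0.62 (adjusted p = 0.00513). The call did not hold by limma (adjusted p = 0.42; limma called 0 of all events tested for this difference, with 4267 at an unadjusted p under 0.05). It was also lost without the second HMLE TWIST control library, where the difference was -0.57 with an adjusted p of 0.985; without that library the HMLE TWIST change itself was 0.14 and was called (adjusted p = 0.0158). A further event of the same exon, with another upstream exon, was too shallow to test. Its inclusion reads, 179 and 68 in MCF10A with emetine against 16 and 5 in control, also count the downstream junction that both events share. Its level was 0.912 and 1 in MCF10A control and 0.991 and 1 with emetine. In HMLE TWIST it was 0 and 0.266 in control and 0.661 and 0.796 with emetine, from 3 to 14 reads per library.

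**Figure D3:**
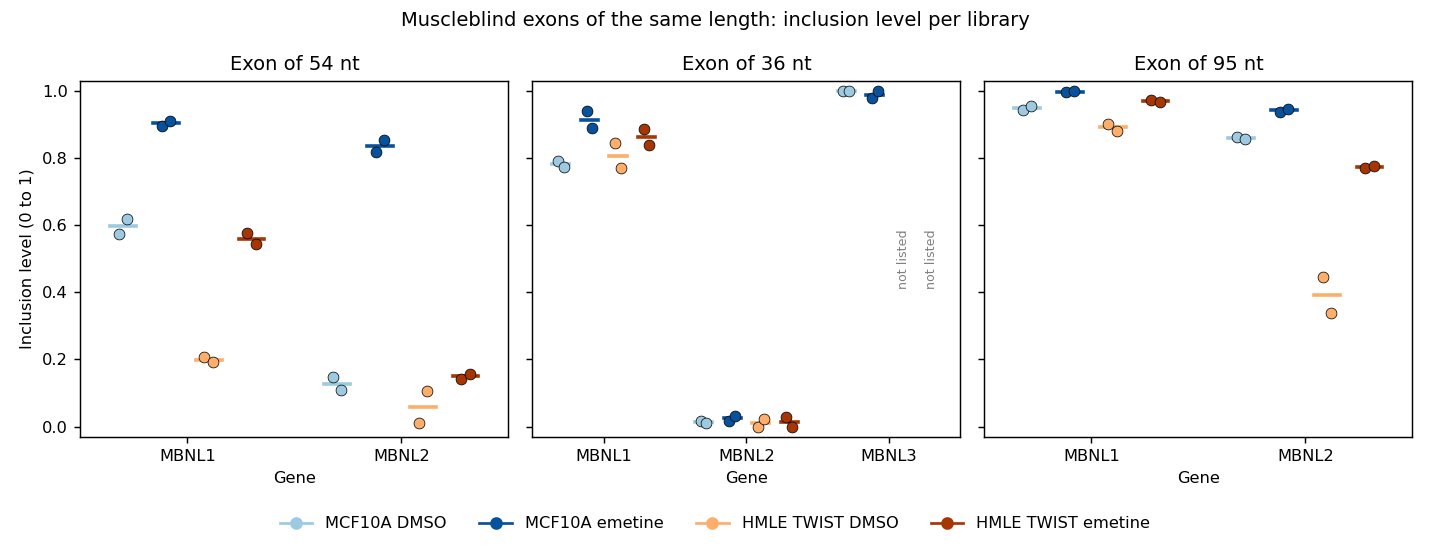
Inclusion level per library (points) and group mean (bars) of the exons of 54, 36 and 95 nt, through the most read event of each exon; colours give line and treatment, and an exon absent from a line's table is marked as not listed. The exons of 54 nt lie higher with emetine in MCF10A for both genes, and the exon of 36 nt sits between 0.77 and 0.941 in MBNL1 and at most at 0.0328 in MBNL2. For the exon of 95 nt the events drawn start from different upstream exons in MBNL1 and MBNL2, so their levels are not like for like.

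The exon of 36 nt was used very differently by the paralogs. In MBNL1 (chr3:152173331-152173366, plus strand, GRCh37) it was mostly kept, at 0.793 and 0.773 in MCF10A control and 0.941 and 0.889 with emetine. In HMLE TWIST it stood at 0.844 and 0.77 in control and 0.888 and 0.838 with emetine, and these groups overlapped. The rise of 0.13 in MCF10A was called (adjusted p = 2e-08), but not by limma (0.0881). The difference of 0.06 in HMLE TWIST had an adjusted p of 0.0498 and stayed under the size of 0.1. The lines' changes were not called different (difference -0.08, adjusted p = 0.0883); without the second MCF10A emetine library, the second HMLE TWIST control library or the first HMLE TWIST emetine library they were, with differences of -0.10, -0.11 and -0.10.

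A second event of the same MBNL1 exon is defined without the following exon of 95 nt in both of its forms. Its level rose by 0.13 in MCF10A (0.851 and 0.832 to 0.969 and 0.978; adjusted p = 5.41e-04, and 0.0223 by limma). In HMLE TWIST it rose by 0.15 (0.881 and 0.742 to 0.946 and 0.971; adjusted p = 3.38e-04). That call missed the threshold by limma (0.065), and without the second HMLE TWIST control library the difference was 0.08 (adjusted p = 0.109). Events of an exon share junctions. The skipping reads of the second event were 24 and 23 in MCF10A control and 5 and 2 with emetine. They are also those of an event of the exon of 95 nt, and they count molecules that lack both exons. The inclusion reads of the second event also count the upstream junction of the most read event, which molecules with the exon of 95 nt share. The second event is thus not a separate observation from the most read one. Its level is not the share kept among molecules without the exon of 95 nt.

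In MBNL2 the exon of 36 nt (chr13:98017390-98017425, plus strand, GRCh37) was almost always skipped, at 0.0176 and 0.00909 in MCF10A control and 0.015 and 0.0328 with emetine. The 4 inclusion reads of the first control library came from 169 reads in all. In HMLE TWIST its level was 0 and 0.0226 in control and 0.0287 and 0; the 0 of 32 and 0 of 43 reads allow shares of reads of up to 9.38% and 6.98%. The difference of 0.01 in MCF10A was not called (adjusted p = 0.6). A second event of this exon, defined without the exon of 95 nt, was too shallow to test. Its inclusion reads also count the upstream junction shared with the first event, and its skipping reads are those of an event of the exon of 95 nt. The second event thus does not give the share of all MBNL2 molecules with the exon of 36 nt. It stood at 0.118 and 0 in MCF10A control and 0.0325 and 0.181 with emetine, from 13 to 26 reads per library. In HMLE TWIST it stood at 0, 0.0118, 0 and 0. In MBNL3 (chrX:131518691-131518726, minus strand, GRCh37), by contrast, 36, 35 and 45 reads of 3 MCF10A libraries all came from the inclusion form, and 60 of 61 did in the first emetine library. The event of MBNL3 had too few skipping reads to test and was not listed for HMLE TWIST. In the annotation 7 of the 12 transcripts of MBNL3 hold the inclusion form of this event and 3 the skipping form. The most read event has 5 and 4 of the 24 transcripts of MBNL1, and 2 and 1 of the 6 of MBNL2.

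The exon of 95 nt follows that of 36 nt, and its most read event starts from the exon of 36 nt in MBNL1 and from the exon of 154 nt in MBNL2, so the levels of these events are not set against each other. In MBNL1 (chr3:152174056-152174150, plus strand, GRCh37) it was near its ceiling, at 0.945 and 0.956 in MCF10A control and 0.996 and 1 with emetine. In HMLE TWIST it stood at 0.901 and 0.882 in control and 0.974 and 0.966 with emetine. The emetine libraries lay above the controls in both lines, and the differences of 0.05 (adjusted p = 1.12e-05) and 0.08 (adjusted p = 6.1e-06) stayed under the size of 0.1. A second event of the exon, defined without the exon of 36 nt, starts from the exon of 154 nt, as the most read event of MBNL2 does. It stood at 0.928 and 0.917 in MCF10A control and 0.982 and 0.991 with emetine, a difference of 0.06. In HMLE TWIST it stood at 0.937 and 0.85 in control and 0.977 and 0.988 with emetine, a difference of 0.09. Its inclusion reads also count the junction that leaves the exon of 95 nt, which molecules with the exon of 36 nt share.

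In MBNL2 the exon of 95 nt (chr13:98018713-98018807, plus strand, GRCh37) rose in HMLE TWIST, where much of it was skipped without emetine. Its inclusion level was 0.447 and 0.339 in HMLE TWIST control and 0.772 and 0.778 with emetine. In MCF10A it was 0.864 and 0.858 in control and 0.938 and 0.947 with emetine. The order of the groups was HMLE TWIST control, HMLE TWIST emetine, MCF10A control and MCF10A emetine, with no overlap between neighbours. The mean rose from 0.393 ± 0.0763 to 0.775 ± 0.00399 (SD, n = 2) in HMLE TWIST, a change of 0.38 (adjusted p = 1.59e-06, and 0.0264 by limma), from 85 to 124 reads per library. The difference in MCF10A was 0.08 (adjusted p = 0.0155, and 0.0721 by limma), under the size of 0.1. The event of MBNL2 that starts from the exon of 36 nt was listed for MCF10A alone, at 0.966 and 1 in control and 1 and 1 with emetine. It had too few skipping reads to test, and its inclusion reads also count the downstream junction, which molecules without the exon of 36 nt share.

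The 2 changes of this MBNL2 exon differed by 0.30 in inclusion level, which was not called (adjusted p = 0.516). The model tests log odds, on which a step near the ceiling of 1 counts for more than the same step in the middle of the scale. Without emetine the exon was lower in HMLE TWIST than in MCF10A by 0.47 (adjusted p = 7.53e-15, and 0.0824 by limma). Its skipping reads, 33 and 62 in HMLE TWIST control, join the exon of 154 nt to the last exon and so also lack the exon of 36 nt.

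The remaining muscleblind exons stayed near one end of the scale or were shallow. The exon of 204 nt of MBNL1 was kept at 0.947 and 0.957 in MCF10A control and 0.978 and 0.972 with emetine, and at 0.967 to 0.977 in the HMLE TWIST libraries. The exon of 64 nt near the end of MBNL1 was mostly skipped, at 0.00241 to 0.0179 over the MCF10A libraries and at 0.0205 to 0.0548 over those of HMLE TWIST; the difference of 0.02 in HMLE TWIST had an adjusted p of 0.0328, far under the size of 0.1. The exon of 963 nt with the start of the MBNL1 coding sequence was kept at 0.919 or more in every library. In MBNL2 the exons of 778, 165 and 201 nt were kept at 0.985 or more where listed, and that of 264 nt at 0.924 or more. The exon of 120 nt of MBNL1 had a level of 0.111 to 0.455 from 13 to 40 reads per library. Its difference of -0.06 in HMLE TWIST was not called (adjusted p = 0.559). This level leaves out molecules in which the exon of 963 nt takes its place between the same flanking exons. Inclusion reads were 10 and 13 in HMLE TWIST control, against 1162 and 844 for the exon of 963 nt. The level is thus not the share of all MBNL1 molecules with the exon of 120 nt. The exon of 120 nt was 1 of the 2 tested muscleblind events that were lower with emetine in HMLE TWIST. The other was the exon of 963 nt at -0.02. Both events have the same skipping reads, 22 and 19 in HMLE TWIST control and 24 and 32 with emetine, so they are not separate observations. No tested event was lower in MCF10A. In MBNL3 the exon of 74 nt stood at 0.187 and 0.187 in MCF10A control and 0.257 and 0.257 with emetine, from 14 to 40 reads, and the exon of 138 nt had at most 17 reads in a library.

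The events closest to the exon of 54 nt of MBNL1 over the 4 group means, among 20119 events of other genes tested in both lines, were in RAI14, MAGI1, EDRF1, BIN1 and CSNK2A1. Likeness was the root mean square distance of the inclusion levels, which ran from 0.0244 to 0.092. The nearest, an exon of 87 nt of RAI14, stood at 0.586 and 0.862 in MCF10A without and with emetine and at 0.179 and 0.549 in HMLE TWIST. For the exon of 36 nt of MBNL1 the nearest genes were CCBL1, DHDDS, GLRB, TET3 and MAPKAPK5-AS1 (distances 0.0094 to 0.0199), and for its exon of 95 nt TEAD4, FLVCR1, FAM104A, HSPBAP1 and SCAP (0.00657 to 0.00935).

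Genes whose exons muscleblind proteins are known to act on were described from a list of 37 targets, and genes that work with or against muscleblind proteins from a list of 17 partners. In MCF10A, 29 of 123 tested events of targets were called (14 higher, 15 lower; 23.6%), over 15 of 24 tested genes, and 10 of 56 events of partners (3 higher, 7 lower; 17.9%). In HMLE TWIST, 29 of 159 events of targets were called (13 higher, 16 lower; 18.2%), over 15 of 23 genes, and 11 of 61 events of partners (3 higher, 8 lower; 18%). The share of all tested events called was 13.8% and 15%, and that of genes with at least 1 called event 29.5% and 34.4%. The gene shares are not like for like, since a gene with more tested events has more ways to be called. All tested events were 25522 over 7852 genes in MCF10A and 30290 over 8058 in HMLE TWIST, fewer per gene than for the targets. The median change was within 0.01 of 0 for both lists in both lines. By limma, 17 events of the 2 lists were called in MCF10A and 23 in HMLE TWIST.

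Of the 150 listed events tested in both lines, 24 over 13 genes were called in both, 9 higher and 15 lower, all in the same direction in both lines, beside 1828 of 1854 (98.6%) among all events called in both. GOLGA4, which encodes a tethering protein of the Golgi, kept an exon of 63 nt more often, at 0.247 and 0.184 in MCF10A control and 0.798 and 0.725 with emetine, and at 0.244 and 0.135 against 0.445 and 0.545 in HMLE TWIST. HNRNPH1, a splicing regulator, kept an exon of 92 nt less often, at 0.894 and 0.906 against 0.313 and 0.416 in MCF10A and at 0.893 and 0.935 against 0.329 and 0.424 in HMLE TWIST. The treated libraries lay apart from the controls in both genes and both lines.

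KIF13A, a kinesin motor, kept an exon of 39 nt less often, at 1 and 0.765 in MCF10A control and 0.356 and 0.399 with emetine, and at 1 and 1 against 0.803 and 0.783 in HMLE TWIST. DMPK, the kinase gene whose expanded repeat RNA binds muscleblind proteins in myotonic dystrophy, kept an exon of 90 nt less often. Its level was 0.821 and 0.79 against 0.324 and 0.321 in MCF10A and 0.742 and 0.654 against 0.388 and 0.31 in HMLE TWIST. Another event of this DMPK exon, also called in both lines, changed less and stayed mostly kept. It stood at 1 and 0.959 against 0.87 and 0.82 in MCF10A (adjusted p = 0.0102, and 0.0893 by limma). In HMLE TWIST it stood at 0.873 and 0.961 against 0.833 and 0.794 (adjusted p = 0.0158, and 0.186 by limma). For the event of largest change in each named gene, the adjusted p ran from 2.29e-304 (HNRNPH1 in MCF10A) to 0.0047 (KIF13A in HMLE TWIST). Of these events of largest change, GOLGA4 in HMLE TWIST (0.0532) and KIF13A in MCF10A (0.0984) missed the threshold by limma.

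**Figure D4:**
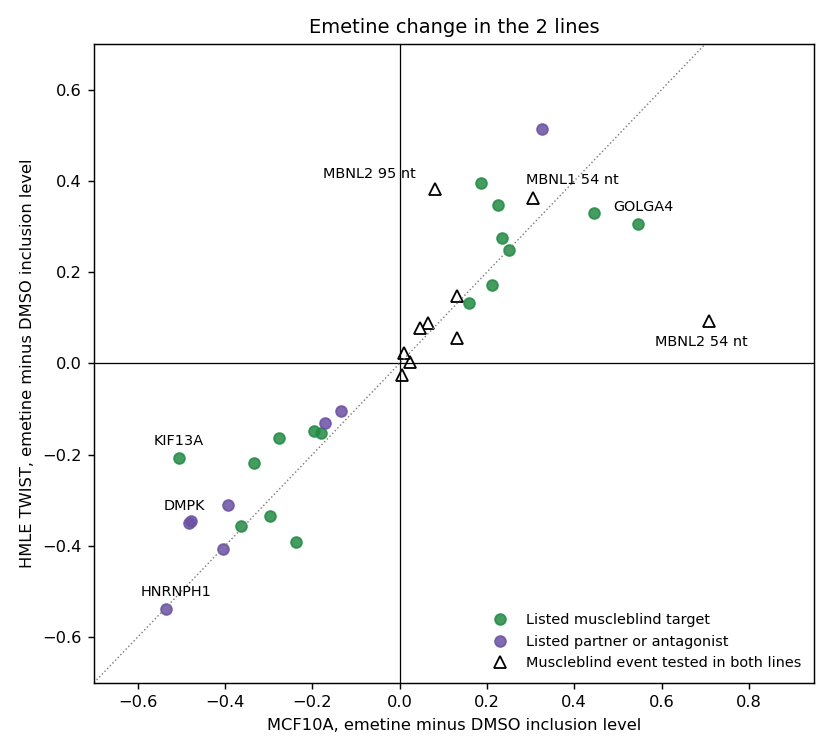
Emetine minus DMSO inclusion level in MCF10A (horizontal axis) and HMLE TWIST (vertical axis) for the 24 listed target and partner events called in both lines (filled points) and the muscleblind events tested in both lines (open triangles); the dotted line marks equal changes. The exon of 54 nt of MBNL2 lies far below the dotted line at 0.71 and 0.09, that of 95 nt above it at 0.08 and 0.38, and that of MBNL1 of 54 nt near it at 0.31 and 0.36.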

How the data were processed

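The authors deposited, per the file headers, a skipped-exon table in the format of rMATS for each line, with inclusion and skipping junction counts per event, and the submitters' processing notes name STAR 2.5.3a and GRCh37. The deposited p-value, FDR and difference score came from the authors' own rMATS runs, as the column names of that format show, and were not used for calls here. The rMATS version and annotation release are not given in the sources used here. The first group was taken as DMSO from the order in each table's name. Values in a cell carry no replicate number, so the first listed was called replicate 1.

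Inclusion and skipping counts were fitted here with a quasi-binomial model on the log odds, with dispersion moderated over all events by limma 3.58.1 (R 4.3.3), floored at 1, F tests and Benjamini-Hochberg adjustment over all tested events. Moderation pooled the dispersion fully, at 1.97 in MCF10A, 1.95 in HMLE TWIST, 1.84 for the difference of changes and 1.96 for the untreated lines, so an event's own spread does not enter its p. Tested events had at least 20 reads in every library and 10 of the rarer form. Each line's table was fitted whole (25522 and 30290 events), and events with the same junctions in both tables were used across lines (33781 for the difference of changes, 20516 for the untreated lines). The limma alternative used log2 odds with 0.5 added to each count.

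In the first version of the model, groups with no read of 1 form counted toward the residual degrees of freedom. It was replaced after its results had been seen, and its values are given with the alternatives. In simulated data with log odds shifted by 1.5, the model found 24.4% of all shifted events in MCF10A, 28.7% in HMLE TWIST and 12.1% for the difference of changes. Among shifted events whose simulated levels differed by at least 0.1, a size that is itself part of the call, it found 69.8%, 66.2% and 37.5%. All events were simulated with the same dispersion, so spread that differs between events was not tried. Deviations of same-numbered replicates correlated at 0.0177 and 0.00667. With 2 replicates in a group this cannot settle whether the numbers pair the libraries, and the main model treated them as unpaired.

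Genes and lists were chosen with earlier results of these data known. Each exon is described through its most read event. Of the lists, the events with the largest change among those called in both lines are named, 1 per gene, for 4 genes.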

Additional observations from a re-analysis of the deposited data

Results flagged for a closer look

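The emetine change of the exon of 54 nt of MBNL2 differed between the lines in the test of the difference itself. The change in HMLE TWIST minus that in MCF10A was -0.62 in inclusion level (adjusted p = 0.00513 in the quasi-binomial model moderated with limma, 0.42 by limma on log odds). All 4 treated libraries lay above the controls of their line, at 0.817 and 0.855 against 0.147 and 0.108 in MCF10A and at 0.143 and 0.157 against 0.00909 and 0.106 in HMLE TWIST. The first HMLE TWIST control library held 1 inclusion read of 72, and the call is lost without the second (difference -0.57, adjusted p = 0.985).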

How the results depend on the processing

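No called muscleblind change turned its direction under any alternative run. Uncalled differences did when 1 library was left out: that of the MBNL1 exon of 204 nt in HMLE TWIST, those between the untreated lines for both events of the MBNL1 exon of 36 nt, and the differences of changes of the MBNL2 exon of 36 nt and of the second event of the MBNL1 exon of 36 nt. In MCF10A the 4 called events became 0 with each event's own dispersion alone, which leaves at most 2 residual degrees of freedom, and 2 at a size of at least 0.2. In HMLE TWIST the 3 called events became 0 with own dispersion and 6 at a size of at least 0.05. The single difference of changes became 0 by limma, at 50 reads per library, with the larger of own and moderated dispersion and with own dispersion. Both differences between the untreated lines became 0 by limma and with own dispersion. The listed targets and partners went from 39 called events in MCF10A to 17 by limma, 0 with own dispersion and 24 at a size of at least 0.2, and from 40 in HMLE TWIST to 23, 0 and 21, with 63 at a size of at least 0.05. The cause was not tested.

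Leaving out 1 library at a time gave 4 called events throughout in MCF10A, 3 to 4 in HMLE TWIST, 1 to 2 for the difference of changes, 2 to 3 for the untreated lines, and, for the targets and partners together, 36 to 39 in MCF10A and 33 to 41 in HMLE TWIST. The replicate block gave 4, 3, 1 and 2 called muscleblind events and, for the targets and partners together, 40 in each line, and changed no muscleblind call.

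The first version of the model, kept as an alternative that was added after seeing the data, gave the same counts of muscleblind events, 4, 3, 1 and 2, with all libraries. It was unstable: without either emetine library of a line it called 0 muscleblind events and 0 listed events in that line, and for the difference of changes it gave 0 to 1 over the libraries left out and 2 throughout for the untreated lines. With the replicate block it called 0 in all 4 comparisons and 0 listed events in both lines. Its calls without a control library were 4 in MCF10A, 3 to 4 in HMLE TWIST, and 32 to 36 and 30 to 32 for the listed events of these lines.

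With 2 libraries in a group, p-values rest on a spread pooled over events. Depth limits MBNL3 in HMLE TWIST, with at most 3 reads in its most read event, and MBNL2 in HMLE TWIST, where its exon of 54 nt had 49 to 78 reads per library.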
